A study of Mus musculus with 5 samples.

Results

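The genes described here are 31 chemokines and chemokine receptors, 27 ligands and 4 receptors, measured in adherent peritoneal macrophages of wild-type and c-Jun-deleted mice. They were chosen by name, and each was read from the array probes whose transcript accession matched its symbol, with the brightest probe standing for the gene. Of the 31 genes, out of 21154 named genes on the array, 30 had a probe and 25 could be tested. Cxcl13, Pf4 and Ccl5 had a spot with an outlier flag on 1 array, so they were outside the main test and are given with that spot kept. Ccl11 and Ccl20 were not well above background on any array, and no probe matched Cxcl11. The wild-type group held 3 mice (numbers 5, 11 and 14) and the c-Jun-deleted group 2 mice (numbers 1 and 9), all 8 weeks old and on a mixed 129/C57Bl6 background. The genotype label of the deleted mice is cJunfl/fl LysMCre-/+, and their titles give c-JunΔLysM, whereas their source names give c-JunΔMx. LysM-Cre is a recombinase placed in the lysozyme gene Lyz2, which is active in macrophages and also in neutrophils. The wild-type mice were littermates, and their labels give no floxed or Cre allele. Cells washed from the peritoneal cavity were plated overnight, and RNA came from those that adhered.

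Chemokines are small secreted proteins that bind receptors coupled to G proteins and direct leukocytes along their gradients. Macrophages of the peritoneal cavity make them constitutively, as with Cxcl13, which draws B cells into the cavity, and on activation, as with Cxcl1, Cxcl2, Ccl2, Ccl3 and Ccl4. Jun is a subunit of AP-1, a transcription factor that acts beside NF-kappaB and interferon regulatory factors at inflammatory genes.

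Values are log2 of a probe's processed signal over the 75th percentile of all probes of the same array, and a difference is the c-Jun-deleted mean less the wild-type mean. That percentile lay between 436.9 and 596.3 intensity units, and between 53.0% and 60.6% of the spots on an array were well above background. All 16 macrophage identity genes were well above background on all 5 arrays. Of these, 12 of 16 had a lower mean in c-Jun-deleted mice, 75% against 61.4% of all genes. Without overlap, 8 were lower, read against 20.2% of all genes, and Lyz2, the Cre locus itself, was among these 8. The median difference of the 16 was -0.44 (-0.40 within slide 1), and 0 passed. Jun was at 3.21, 3.75 and 3.17 on wild-type 5, 11 and 14 and at 2.76 and 2.71 on c-Jun-deleted 1 and 9 (limma adjusted p = 0.391). Whether its probe falls inside the floxed stretch was not determined. The arrays sat on 2 slides, with wild-type 5 beside c-Jun-deleted 1 on slide 1 and the other 3 on slide 2. The c-Jun-deleted mice, which carry 1 genotype label, differed from each other in the signal of Lyz2, the gene that holds the Cre. Lyz2 was at 4.46 on number 1 and at 8.52 on number 9, against 8.70, 8.76 and 9.18 in the wild-type mice. What sets this gap was not tested. The median over the members and the counts are therefore also given without each c-Jun-deleted mouse. Wild-type 11 stood apart in several ways. There 4 of 4 Y-linked genes were well above background, against 1 on wild-type 14 and 0 on the others. Their summed signal, in multiples of the 75th percentile, was 12.5 on wild-type 11. It was 0.0332 and 0.0889 on wild-type 5 and 14, and 0.0176 and 0.0534 on c-Jun-deleted 1 and 9. The labels say that mice of either sex were used. By these genes wild-type 11 alone reads as male, and both c-Jun-deleted mice read as female. Sex and other traits of wild-type 11 therefore cannot be told apart, and the part of sex in the members' values was not tested. Relative to the wild-type mean, the median of T and NK cell markers on wild-type 11 was 1.25, and that of large peritoneal macrophage markers -0.95.

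The group mean was lower in c-Jun-deleted macrophages for most members, as for most genes tested, and no single member passed the test. Of the 25 members tested, 18 had a lower and 7 a higher mean in c-Jun-deleted macrophages, that is 72% lower against 61.4% of all 27938 genes tested and 28% higher against 38.6%. The median difference over the members was -0.75, against -0.09 over all genes tested. Alongside it the macrophage identity genes stood at -0.44 and the 14 B cell markers at 2.42, and the part of either list in the members' values was not tested. In 6 members, Cxcl16, Ccl4, Ccl7, Ccl8, Ccl9 and Ccl22, both c-Jun-deleted arrays lay below all wild-type arrays, which is 24% of the members against 20.2% of all genes. In 1 member, Cxcl12, both lay above, which is 4% against 13.3% of all genes. Of the 6, 2 (Ccl4 and Ccl8) differed at least 2-fold, 8% of the members against 4.27% of all genes, and Cxcl12 was also past 2-fold, against 3.89%. The counts of members without overlap are therefore near or under those of the array as a whole. With limma, 0 of 25 members had an adjusted p below 0.05, against 0% of all genes. At an unadjusted p below 0.05 there were 2, Cxcl16 and Ccl4, both lower, which is 8% of the members against 6.53% of all genes, and 0 higher, against 5.63% (12.2% of all genes in either direction). Adjusted p-values of the members ran from 0.318 to 0.952, and from 0.189 to 1 over all alternatives tried.

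**Figure D1:**
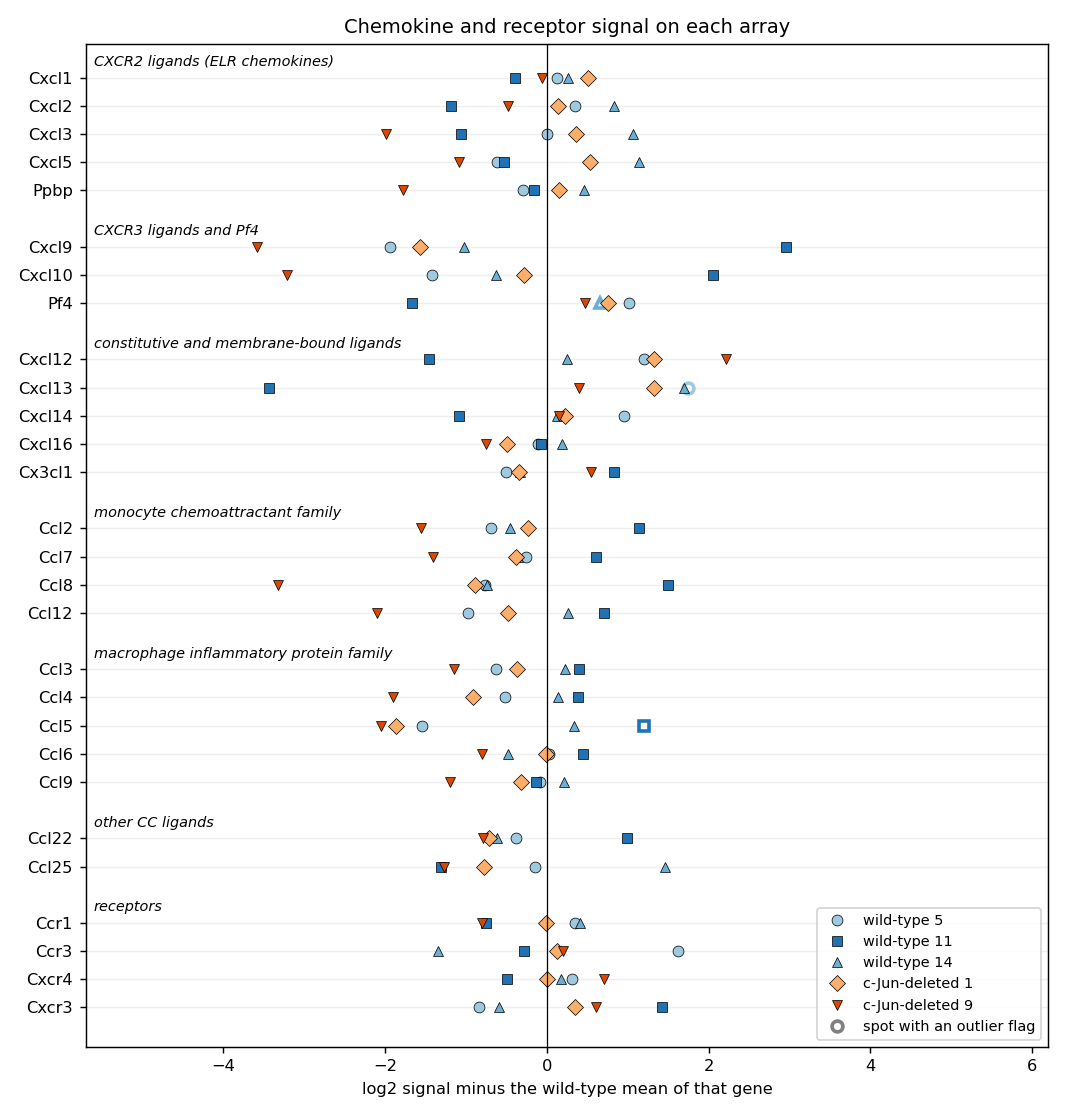
Signal of the 28 members with values, as log2 minus the wild-type mean of each gene (horizontal axis), on each of the 5 arrays; open symbols are spots with an outlier flag. c-Jun-deleted 9 lies farthest left for most ligands, and wild-type 11 farthest right for most CC ligands and farthest left for Cxcl12, Cxcl13, Cxcl14 and Pf4.

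The shift rested mostly on 1 of the 2 c-Jun-deleted mice. c-Jun-deleted 9 was the lowest of the 5 arrays in 16 of the 25 members, or 64%, against 28.5% of all genes. It was the lowest in 9 of the 10 CC ligands tested. c-Jun-deleted 1 was the lowest in 0 members, against 19.7% of all genes, and the highest in 1, Cxcl1, against 7.97%. On the other side, wild-type 11 was the highest array in 12 members, or 48% against 22.3% of all genes, and in 8 of the 10 CC ligands. It was the lowest in 6 members, or 24% against 21.2% of all genes, while wild-type 5 was the lowest in 2 (9.36% of all genes) and wild-type 14 in 1 (21.2%). Wild-type 14 was the highest in 8 members (27.9% of all genes), wild-type 5 in 2 (19.9%) and c-Jun-deleted 9 in 2 (21.9%). Relative to the wild-type mean, the median over the members was -0.23 for c-Jun-deleted 1 and -1.08 for number 9, while wild-type 5, 11 and 14 stood at -0.25, -0.07 and 0.18. c-Jun-deleted 1 thus lay at the level of wild-type 5, its partner on slide 1. Within slide 1 the median difference was -0.03, within slide 2 it was -1.24, and with the slide as a block it was -0.70. Without c-Jun-deleted 9 it was -0.23, and without c-Jun-deleted 1 it was -1.08. On leaving out c-Jun-deleted 9, 15 of 25 members (60%) still had a lower mean. When number 1 was left out instead, 19 of 25 (76%) did. The matching shares of all genes are not given here, and with all 5 arrays that share was 61.4%. Because that share comes from a fit with both deleted mice, neither the 60% nor the 76% can be read against it. Relative to the wild-type mean, the median over all genes tested was -0.07 for c-Jun-deleted 1 and -0.09 for number 9. Members lower without overlap numbered 6 when number 9 was left out, against 32.4% of all genes. They numbered 16 when number 1 was left out, against 36.0%. Of the 25 members 10 were lower within both slides, 40% against 40.7% of all genes, and 4 were higher within both, 16% against 22.9%. The remaining 11, or 44% against 36.3%, had opposite signs within the 2 slides.

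**Figure D2:**
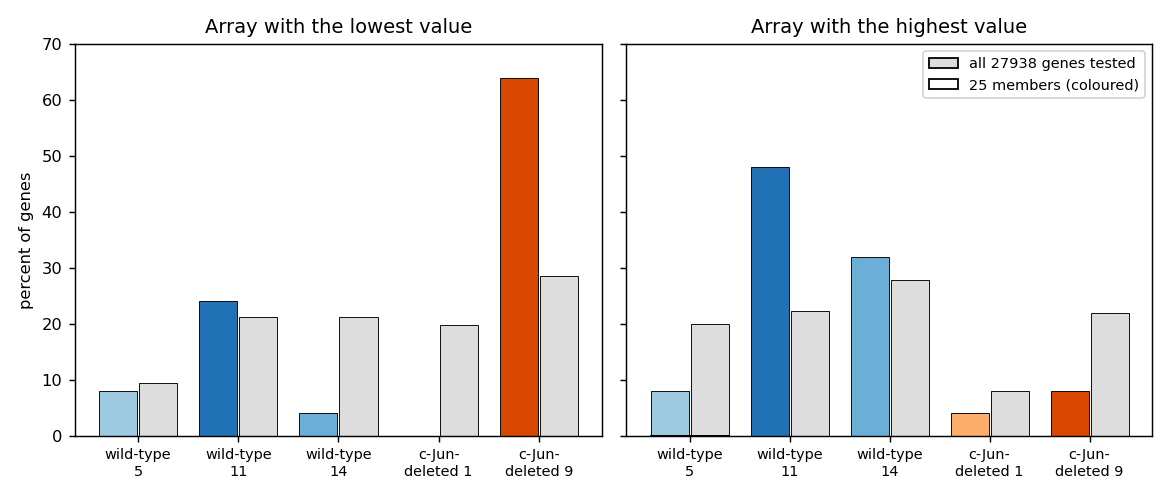
Percent of genes whose lowest (left) or highest (right) value fell on each array, for the 25 members tested (coloured bars) and all 27938 genes tested (grey bars). c-Jun-deleted 9 held the lowest value of 64% of the members, and wild-type 11 the highest value of 48%.

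**Figure D3:**
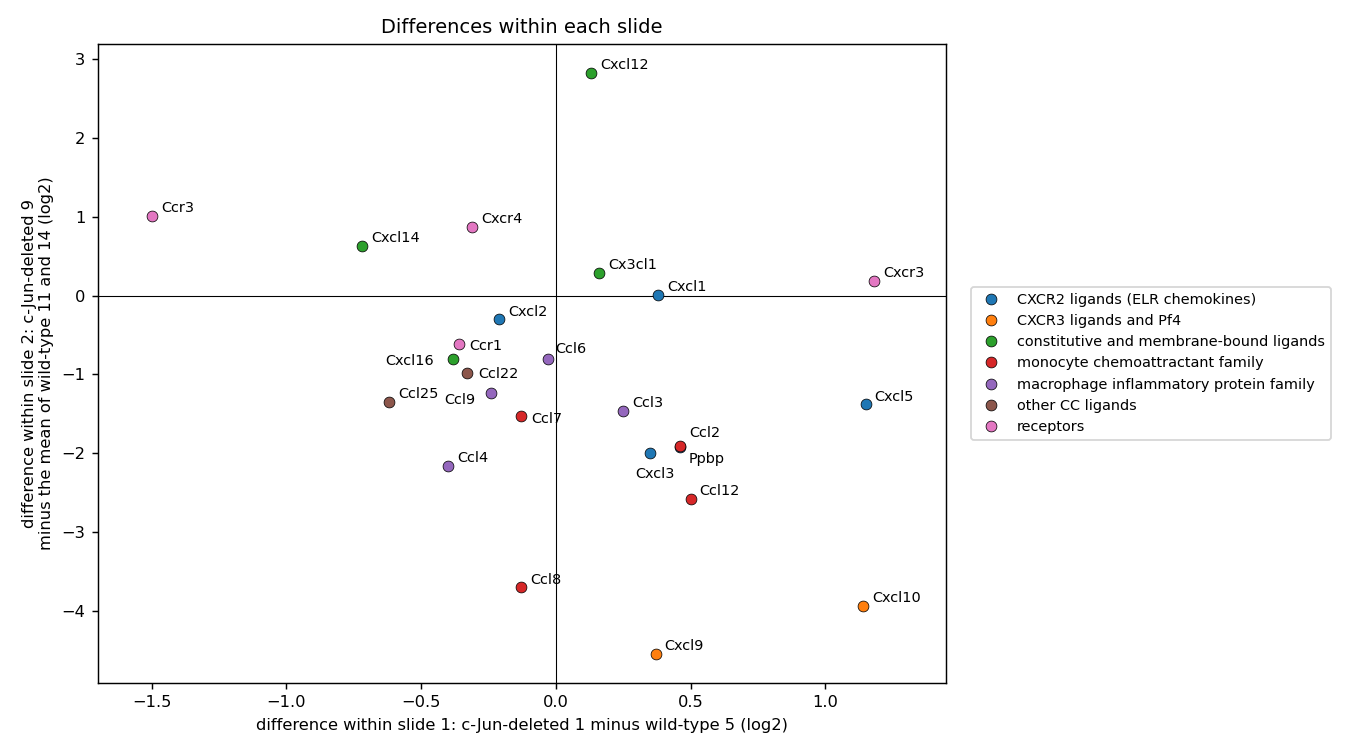
Difference of each of the 25 members within slide 1 (horizontal axis, 1 array against 1) and within slide 2 (vertical axis, 1 array against the mean of 2), in log2. Cxcl16, Ccl4, Ccl7, Ccl8, Ccl9 and Ccl22 lie in the lower left, and Cxcl9 and Cxcl10 are far below 0 on slide 2 and above 0 on slide 1.

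The neutrophil-attracting chemokines that act through CXCR2 did not separate the genotypes. This group holds Cxcl1, Cxcl2, Cxcl3, Cxcl5 and Ppbp, which draw neutrophils out of the blood, and 4 of the 5 had a lower and 1 a higher mean in c-Jun-deleted macrophages, with a median of -0.27 and overlapping groups in all 5. Cxcl1 was at 1.53, 1.01 and 1.67 on wild-type 5, 11 and 14 and at 1.91 and 1.35 on c-Jun-deleted 1 and 9 (difference 0.23, SE 0.29). Cxcl2 was at 2.41, 0.88 and 2.90 against 2.20 and 1.59 (-0.16, SE 0.66). Both were lowest on wild-type 11, so the spread among wild-type mice was larger than the difference. Cxcl3, the close relative of Cxcl1 and Cxcl2, was at 2.24, 1.18 and 3.30 against 2.60 and 0.25 (-0.82, SE 0.94). Cxcl5 was at -1.42, -1.33 and 0.33 against -0.27 and -1.89 (-0.27, SE 0.76). In both, c-Jun-deleted 1 lay second highest after wild-type 14, and c-Jun-deleted 9 was lowest, with Cxcl3 there 4.24-fold below the mean of the other 4 arrays. Ppbp, the precursor of platelet basic protein, was at 0.11, 0.24 and 0.86 against 0.56 and -1.37 (-0.80, SE 0.63). Without c-Jun-deleted 9 the differences of Cxcl2, Cxcl3, Cxcl5 and Ppbp were 0.14, 0.36, 0.54 and 0.16. Limma's adjusted p lay between 0.616 (Ppbp) and 0.933 (Cxcl2). Of 10 platelet and megakaryocyte markers, 8, 7 and 7 were well above background on wild-type 5, 11 and 14 and 8 and 5 on c-Jun-deleted 1 and 9, with Gp9 and Gp5 on no array. Their summed signal, in multiples of the 75th percentile, was 1.76 to 5.81 in wild-type and 2.01 to 2.90 in c-Jun-deleted macrophages; its part in the Ppbp values was not tested. Treml1 held 4.42 of the 5.81 on wild-type 5. The 10 neutrophil markers with a probe summed to between 159 and 174 on the wild-type arrays, against 157 and 173 on the c-Jun-deleted arrays, of which Csf3r alone held 137 to 160.

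Promoter sequences from RefSeq (GRCm38.p6) were found for 23 of the 31 members, and the 250 bases before the start were searched on both strands for binding motifs. The other 8 (Cxcl5, Cxcl11, Cxcl16, Ccl2, Ccl4, Ccl5, Ccl7 and Ccl11) had no promoter sequence and were not searched. The arrays themselves were designed on mm9, and the promoters were matched by gene symbol. Shown first are those of Cxcl1, Cxcl2 and Cxcl3, which lie on chromosome 5 and share a match to the kappaB motif of NF-kappaB, given in capitals.
Cxcl1, chr5:90890995-90891244, + strand: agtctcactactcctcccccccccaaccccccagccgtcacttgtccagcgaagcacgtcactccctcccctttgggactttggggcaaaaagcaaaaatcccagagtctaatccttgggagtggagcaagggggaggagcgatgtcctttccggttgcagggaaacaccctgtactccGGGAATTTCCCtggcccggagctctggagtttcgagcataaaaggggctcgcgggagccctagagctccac
Cxcl2, chr5:90903649-90903898, + strand: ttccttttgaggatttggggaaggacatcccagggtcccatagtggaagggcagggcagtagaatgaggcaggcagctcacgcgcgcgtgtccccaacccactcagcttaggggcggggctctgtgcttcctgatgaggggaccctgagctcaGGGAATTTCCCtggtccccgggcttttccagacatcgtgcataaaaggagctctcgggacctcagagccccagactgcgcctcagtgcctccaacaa
Cxcl3, chr5:90785851-90786100, + strand: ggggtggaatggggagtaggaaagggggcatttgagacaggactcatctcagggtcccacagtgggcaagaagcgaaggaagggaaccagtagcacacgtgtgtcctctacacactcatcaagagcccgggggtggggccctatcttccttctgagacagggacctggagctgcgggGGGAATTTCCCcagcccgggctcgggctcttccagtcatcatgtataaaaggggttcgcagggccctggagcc
In these 3 promoters the capitals read GGGAATTTCCC and hold 2 overlapping kappaB matches, 1 on each strand, the first of them starting 71, 97 and 73 bases before the start of Cxcl1, Cxcl2 and Cxcl3. The kappaB motif matched 8 of the 24 member promoters (Ccl25 has 2), against 7.25% of all 32851 promoters of that length. Members with the match were Cxcl1, Cxcl2, Cxcl3, Cxcl10, Ccl9, Ccl20, Ccr1 and Ccr3. A match is a description of the letters, not of binding.

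In the interferon-inducible CXCR3 ligands, the range over the wild-type mice was larger than the difference between the genotypes. Cxcl9, which attracts activated T cells, was at -1.64, 3.26 and -0.72 on wild-type 5, 11 and 14 and at -1.27 and -3.28 on c-Jun-deleted 1 and 9. Cxcl10, which acts through the same receptor, was at 0.71, 4.19 and 1.50 against 1.85 and -1.08. Wild-type 11 was highest and c-Jun-deleted 9 lowest in both, with the other 3 arrays between them. On wild-type 11, Cxcl9 was 31.6-fold and Cxcl10 10.9-fold above the mean of the other 4 arrays, and on c-Jun-deleted 9 they were 9.09-fold and 8.82-fold below it. The second Cxcl9 probe gave the same order of the highest and lowest array, at -1.81, 2.46 and -0.80 against -1.61 and -2.62. The genotype differences were -2.57 (SE 1.65) for Cxcl9 and -1.75 (SE 1.38) for Cxcl10, with limma adjusted p of 0.553 and 0.62. Without wild-type 11 the differences of Cxcl9 and Cxcl10 shrank to -1.09 and -0.72, and within slide 1 both had the opposite sign, at 0.37 and 1.14. Ifng, the interferon that induces both genes, was picked after its values were seen: it was at -2.88, 1.11 and -2.29 on the wild-type arrays, against -1.23 and -3.99 on the c-Jun-deleted arrays, so it too was highest on wild-type 11 and lowest on c-Jun-deleted 9. Of 16 T and NK cell markers 15 had a probe, of which 13, 15 and 14 were well above background on wild-type 5, 11 and 14, and 15 and 14 on c-Jun-deleted 1 and 9. Like Cxcl9 and Cxcl10, 12 of the 15 were highest on wild-type 11. Their median above or below the wild-type mean was -0.55, 1.25 and -0.59 on wild-type 5, 11 and 14 and 0.04 and 0.26 on c-Jun-deleted 1 and 9. Their summed signal was 25.5, 55.5 and 19.9 on the wild-type arrays, against 59.3 and 77.6 on the c-Jun-deleted arrays, but Cd2, which mouse B cells also carry, made up 33.4 and 43.5 of the latter. Without Cd2 the sums were 14.5, 45.6 and 14.3, against 25.9 and 34.0; the part of these cells in the Cxcl9 and Cxcl10 values was not tested. In bulk RNA such as this, fewer cells of a type and less RNA per cell cannot be told apart.

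Pf4, platelet factor 4, which resident peritoneal macrophages also express, was at 8.85, 6.17 and 8.49 on wild-type 5, 11 and 14 and at 8.59 and 8.31 on c-Jun-deleted 1 and 9. The spot on wild-type 14 carried the outlier flag. Wild-type 11 was 5.22-fold below the mean of the other 4 arrays, which lay within a narrow range. The difference was 0.61 (SE 0.87, limma adjusted p = 0.79) with that spot kept, 0.94 without wild-type 14 and -0.22 without wild-type 11. The 13 large peritoneal macrophage markers, all well above background on every array, summed to 570, 269 and 402 on the wild-type arrays, against 655 and 747 on the c-Jun-deleted arrays; their part in the Pf4 values was not tested.

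The Cxcl10 promoter is shown because it held matches to 3 of the motifs searched, all in capitals and on the strand of the gene.
Cxcl10, chr5:92348890-92349139, - strand: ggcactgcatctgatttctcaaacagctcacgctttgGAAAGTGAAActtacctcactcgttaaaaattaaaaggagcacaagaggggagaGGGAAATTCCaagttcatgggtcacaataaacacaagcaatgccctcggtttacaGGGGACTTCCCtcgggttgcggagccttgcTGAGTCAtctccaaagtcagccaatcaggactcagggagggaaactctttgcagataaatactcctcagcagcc
From the left, the capitals mark an interferon-stimulated response element 213 bases before the start, a kappaB match at 159 bases, 2 overlapping kappaB matches at 104 and 103 bases, and an AP-1 match (TGANTCA) at 74 bases. The AP-1 motif matched 4 of the 24 member promoters, those of Cxcl10, Ccl9, Ccr3 and Ppbp, against 6.75% of all promoters. The interferon-stimulated response element matched those of Cxcl10 and Cxcl14, against 2.98% of all promoters. The AP-1-related cAMP response element TGACGTCA matched 0 of the 24, against 1.55%. Of the 4 members with an AP-1 match, the groups overlapped in Cxcl10, Ccr3 and Ppbp and did not in Ccl9.

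**Figure D4:**
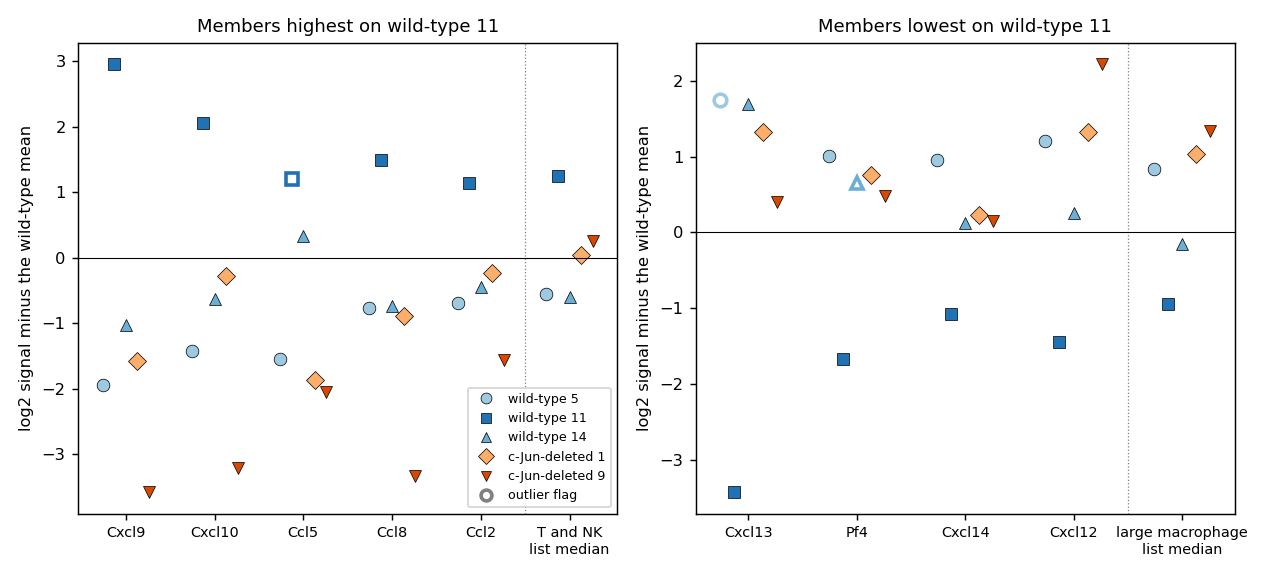
Signal of 5 members picked from those highest (left) and 4 from those lowest (right) on wild-type 11, as log2 minus the wild-type mean, with the median of a marker list at the right of each panel; open symbols are spots with an outlier flag. Of the 25 members tested, 12 were highest and 6 lowest on wild-type 11. Because the members were picked by their values there, a likeness to the lists is no test of a link. On wild-type 11 Cxcl9 was 31.6-fold above and Cxcl13 26.2-fold below the mean of the other 4 arrays.

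Among constitutive and membrane-bound ligands, Cxcl12 was higher and Cxcl16 lower in both c-Jun-deleted mice than in any wild-type mouse. Cxcl12, which retains CXCR4-bearing cells in marrow and tissue, was at -1.62, -4.27 and -2.57 on wild-type 5, 11 and 14 and at -1.50 and -0.60 on c-Jun-deleted 1 and 9. The difference was 1.77 (SE 0.84), a 3.42-fold higher mean (limma adjusted p = 0.457). It rests in large part on wild-type 11, which lay 6.49-fold below the mean of the other 4 arrays: without it the difference was 1.05, within slide 1 it was 0.13, and within slide 2 it was 2.82. With normexp background correction it was 1.12. The second Cxcl12 probe read -2.10, -4.59 and -3.30 against -1.90 and -1.42, again without overlap. Mesothelial and stromal cells are known sources of Cxcl12. Of their markers 12 were tested, and all 12 had a lower mean in c-Jun-deleted macrophages, with a median of -1.10; their part in the Cxcl12 values was not tested. The 16 markers with a probe summed to 4.87, 11.2 and 8.62 on the wild-type arrays, against 2.95 and 4.46 on the c-Jun-deleted arrays, with Lrrn4, Pdgfra and Lum above background on no array. The 7 endothelial markers summed to 6.87 to 8.56 on the wild-type arrays, against 7.29 and 8.01 on the c-Jun-deleted arrays, with Cdh5, Tek and Emcn above background on no array; Kdr held 6.48 to 8.01 of these sums, and the part of this list was not tested.

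Cxcl16, a membrane-anchored chemokine that is also a scavenger receptor for oxidised lipids, was at 3.13, 3.17 and 3.43 on wild-type 5, 11 and 14. In c-Jun-deleted 1 and 9 it was at 2.75 and 2.49. All wild-type arrays lay above both c-Jun-deleted ones, and the spread within each group was small. The mean was 1.54-fold lower (difference -0.62, SE 0.18, limma unadjusted p = 0.019 and adjusted p = 0.318). The difference was -0.38 within slide 1 and -0.81 within slide 2, and across all alternatives it ran from -0.81 to -0.38. Cxcl16 had the smallest p of the members, yet it did not pass over all genes.

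Cxcl13, the B cell attractant of body cavities, was at 8.00, 2.83 and 7.95 on wild-type 5, 11 and 14 and at 7.58 and 6.66 on c-Jun-deleted 1 and 9, where the spot on wild-type 5 carried the outlier flag. A single wild-type mouse, number 11, stood 26.2-fold below the mean of the other 4 arrays, and its spot was not flagged. With the flagged spot kept the difference was 0.86 (SE 1.78, limma adjusted p = 0.862), without wild-type 5 it was 1.72, and without wild-type 11 it was -0.86. Cxcl14, a chemokine made by many epithelia, was at 3.36, 1.33 and 2.54 against 2.64 and 2.56 (0.19, SE 0.62), and Cxcl14 too was lowest on wild-type 11. Cx3cl1, the membrane-bound ligand of Cx3cr1, was at -1.97, -0.63 and -1.79 against -1.81 and -0.92 (0.10, SE 0.52), with overlapping groups. Limma's adjusted p was 0.914 for Cxcl14 and 0.951 for Cx3cl1.

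All 4 genes of the monocyte chemoattractant family, Ccl2, Ccl7, Ccl8 and Ccl12, had a lower mean in c-Jun-deleted macrophages, with a median of -1.09, but none passed the test. Ccl2, the main ligand that calls monocytes through CCR2, was at 2.52, 4.35 and 2.76 on wild-type 5, 11 and 14 and at 2.98 and 1.65 on c-Jun-deleted 1 and 9 (-0.90, SE 0.72). Ccl7, another CCR2 ligand, was at 0.06, 0.92 and -0.04 against -0.07 and -1.09 (-0.89, SE 0.45). Ccl7 did not overlap between groups, though c-Jun-deleted 1 lay only just below wild-type 14. Ccl8 was at -3.80, -1.54 and -3.77 against -3.93 and -6.36 (-2.10, SE 1.05), and Ccl12 was at -3.66, -1.98 and -2.42 against -3.16 and -4.78 (-1.28, SE 0.71). Neither Ccl8 nor Ccl12 was well above background on c-Jun-deleted 9, so the size of their differences is uncertain, and with normexp they were -0.76 and -0.54. In all 4 genes wild-type 11 was highest and c-Jun-deleted 9 lowest. Without wild-type 11 the differences of Ccl2, Ccl7, Ccl8 and Ccl12 were -0.33, -0.59, -1.36 and -0.93, and without c-Jun-deleted 9 they were -0.23, -0.39, -0.89 and -0.47. Within slide 1 they were 0.46, -0.13, -0.13 and 0.50. Limma's adjusted p lay between 0.476 (Ccl8) and 0.623 (Ccl2). Ccr2, the receptor of Ccl2 and Ccl7 and a mark of recent monocytes, was picked after its values were seen: it was at 0.58, 3.14 and -0.50 on the wild-type arrays, against -0.69 and -0.40 on the c-Jun-deleted arrays.

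Macrophage inflammatory proteins and their relatives, which attract monocytes and other leukocytes, had a lower mean in c-Jun-deleted macrophages in all 4 members tested, with a median of -0.76. Ccl4 was at 3.17, 4.07 and 3.82 on wild-type 5, 11 and 14 and at 2.77 and 1.78 on c-Jun-deleted 1 and 9. Both deleted mice lay below all wild-type mice, and the mean was 2.66-fold lower (-1.41, SE 0.42, limma unadjusted p = 0.021 and adjusted p = 0.327). Within slide 1 the Ccl4 difference was -0.40 and within slide 2 it was -2.16. Ccl3, its neighbour in function, was at 3.11, 4.13 and 3.96 against 3.37 and 2.59 (-0.76, SE 0.41), and c-Jun-deleted 1 lay above wild-type 5. Its difference was 0.25 within slide 1. Ccl9, a CCR1 ligand that macrophages make constitutively, was at 6.83, 6.78 and 7.12 against 6.59 and 5.71 (-0.76, SE 0.31). The wild-type values of Ccl9 were close together, and c-Jun-deleted 9 was 2.18-fold below the mean of the other 4 arrays. Ccl6, a related CCR1 ligand, was at 7.23, 7.66 and 6.73 against 7.20 and 6.40 (-0.41, SE 0.38), with overlap. Limma's adjusted p was 0.498 for Ccl3, 0.422 for Ccl9 and 0.673 for Ccl6.

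The Ccl9 promoter is shown because, among the members with a promoter, it alone had both an AP-1 match and groups that did not overlap. Cxcl16, Ccl4 and Ccl7, whose groups did not overlap either, had no promoter to search. Ccl8, Ccl22 and Cxcl12, also without overlap, were searched and had no AP-1 match. Because the Ccl9 promoter was picked by its values here, its match is no test of a link to c-Jun.
Ccl9, chr11:83578637-83578886, - strand: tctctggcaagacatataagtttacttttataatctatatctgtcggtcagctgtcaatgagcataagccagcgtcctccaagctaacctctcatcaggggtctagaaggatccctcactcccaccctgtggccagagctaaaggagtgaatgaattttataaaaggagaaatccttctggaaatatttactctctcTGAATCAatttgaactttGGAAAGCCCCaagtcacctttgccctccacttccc
The capitals mark an AP-1 match, TGAATCA, that starts 53 bases before the start and a kappaB match on the opposite strand that starts 35 bases before it.

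Ccl5, which attracts T cells and monocytes, was at 4.67, 7.42 and 6.55 on wild-type 5, 11 and 14 and at 4.35 and 4.17 on c-Jun-deleted 1 and 9, with the outlier flag on wild-type 11. The groups did not overlap, but wild-type 5 lay near the c-Jun-deleted arrays and far below the other wild-type arrays. The difference was -1.95 (SE 0.84, limma adjusted p = 0.438) with the flagged spot kept and -1.35 (SE 0.69, adjusted p = 0.419) without wild-type 11. Within slide 1 it was -0.32. T and NK cells also make Ccl5, and their markers, given above, were mostly highest on wild-type 11, as Ccl5 was; their part in the Ccl5 values was not tested.

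**Figure D5:**
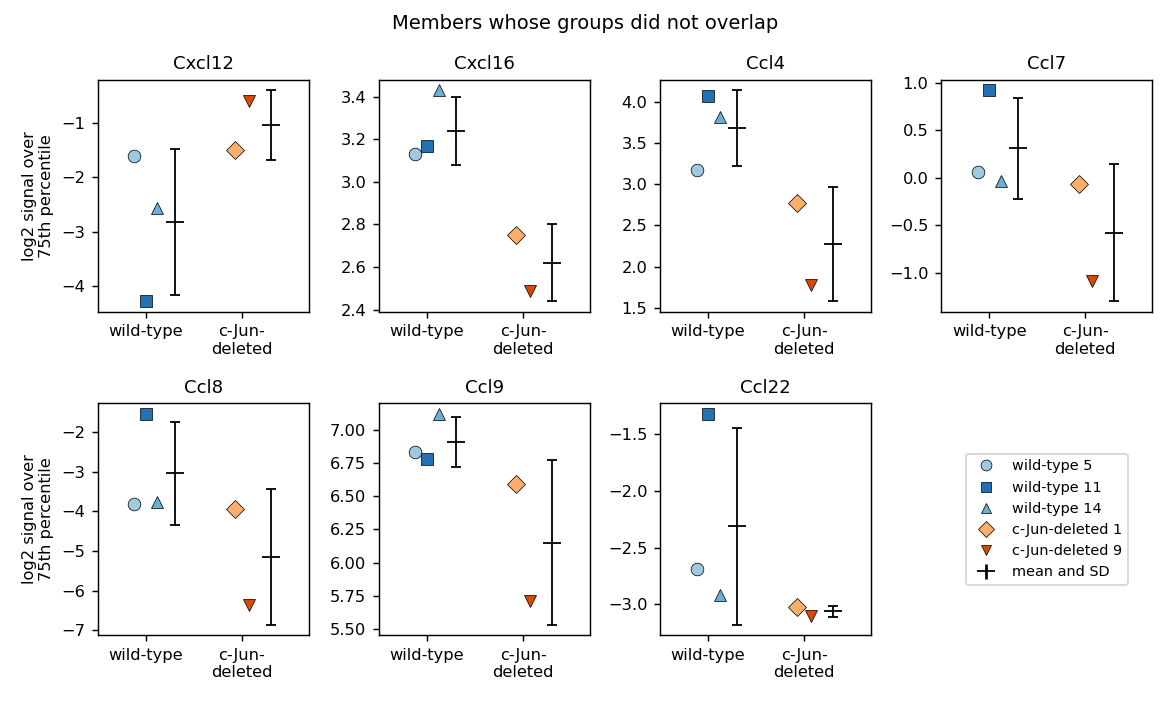
Log2 signal over the 75th percentile (vertical axes) for the 7 tested members whose groups did not overlap, 1 panel each with its own scale; symbols are arrays, and bars show mean and SD of 3 wild-type and 2 c-Jun-deleted arrays. In Cxcl16 both groups are tight, while in Ccl7, Ccl8 and Ccl22 c-Jun-deleted 1 lies close under the lowest wild-type array.

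The other CC ligands were lower as well in the 2 members tested. Ccl22, a ligand of CCR4 that dendritic cells and alternatively activated macrophages make, was at -2.69, -1.32 and -2.92 on wild-type 5, 11 and 14 and at -3.02 and -3.10 on c-Jun-deleted 1 and 9. The groups did not overlap, but wild-type 14 lay close to both deleted mice. The difference was -0.75 (SE 0.53, limma adjusted p = 0.578), -0.26 without wild-type 11 and -0.45 with normexp. The 13 markers of small macrophages, monocytes and dendritic cells with a probe summed to 165, 252 and 116 on the wild-type arrays. On the c-Jun-deleted arrays they summed to 182 and 220, and Xcr1 was above background on no array. Of these markers 12 were tested, with 7 lower and 5 higher means and a median difference of -0.33. Without overlap, 5 were lower and 2 (Irf4 and Plac8) higher. Plac8 was at 4.66, 5.68 and 3.79 in log2 on wild-type 5, 11 and 14, against 6.19 and 6.66. The part of this list in the Ccl22 values was not tested. Ccl25, the thymus-expressed ligand of CCR9, was at 1.60, 0.44 and 3.21 against 0.98 and 0.48 (-1.02, SE 0.84, adjusted p = 0.635). It was highest on wild-type 14, 5.03-fold above the mean of the other 4 arrays, and without that array its difference was -0.29. The second Ccl25 probe put wild-type 14 between the other wild-type mice, at -3.22, -2.66 and -2.98 against -3.64 and -3.81, so the probes disagree on which wild-type mouse was highest. They also disagree on overlap: the groups did not overlap on the second, dimmer probe but did on the probe used. With the mean of probes, 7 members were lower without overlap, against 20.6% of all genes. Ccl11 (eotaxin) and Ccl20 were not well above background on any array, so no fold is given.

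The 4 receptors gave overlapping groups, with 1 lower and 3 higher means. Ccr1, the receptor of Ccl3, Ccl6 and Ccl9 on macrophages, was at 0.14, -0.96 and 0.20 on wild-type 5, 11 and 14 and at -0.22 and -1.01 on c-Jun-deleted 1 and 9 (-0.41, SE 0.47). Cxcr4, the receptor of Cxcl12, was at 0.70, -0.10 and 0.57 against 0.39 and 1.10 (0.36, SE 0.35). Cxcr4 was highest and Ccr1 lowest on c-Jun-deleted 9. Cxcr3, the receptor of Cxcl9 and Cxcl10 on T cells and some B cells, was at -0.53, 1.73 and -0.28 against 0.65 and 0.92 (0.48, SE 0.75). Wild-type 11 again stood highest, and both deleted mice lay above wild-type 5 and 14. Without wild-type 11 the Cxcr3 difference was 1.19. Ccr3, the eotaxin receptor of eosinophils and mast cells, was at 0.05, -1.86 and -2.92 against -1.45 and -1.38 (0.16, SE 0.90), with a wider spread in wild-type than in deleted mice. The 10 mast cell markers summed to 123, 68.9 and 41.9 on the wild-type arrays, against 100 and 94.0 on the c-Jun-deleted arrays, and so had the same order among wild-type mice as Ccr3. The 8 eosinophil and basophil markers summed to 4.37, 2.74 and 1.88 on wild-type 5, 11 and 14, which is the same order again. On the c-Jun-deleted arrays they summed to 4.78 and 7.44, where Il5ra alone held 3.15 and 6.07. Without Il5ra the sums were 3.02, 1.62 and 0.851, still in that order, against 1.64 and 1.37. The list's median difference, Il5ra included, was -0.06, and Epx, Prg2, Prg3 and Mcpt8 were above background on no array. The part of either list in the Ccr3 values was not tested. Limma's adjusted p of the receptors lay between 0.69 (Cxcr4) and 0.952 (Ccr3).

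Of 30 further chemokines and receptors 19 were tested, with 12 lower and 7 higher means and a median of -0.08; 0 passed. Among these, 7 were higher and 5 lower without overlap, read against 13.3% and 20.2% of all genes. With the smallest p among the higher ones stood 3 lymphocyte receptors: Ccr6, the receptor of Ccl20, was at 1.89, 2.46 and 1.43 on wild-type 5, 11 and 14 and at 4.54 and 4.53 on c-Jun-deleted 1 and 9 (2.61, SE 0.33, limma adjusted p = 0.212). Cxcr5, the B cell receptor for Cxcl13, was at 1.16, 1.34 and 0.24 against 3.02 and 3.89 (2.55, SE 0.45), and Ccr9, the receptor of Ccl25, was at -1.17, -2.08 and -2.21 against 0.12 and 0.10 (1.93, SE 0.36). These receptors were well above the wild-type range in both deleted mice and on both slides. All 14 B cell markers were higher without overlap too, with a median of 2.42, and summed to 98.2, 83.6 and 51.7 in wild-type against 333 and 492 in c-Jun-deleted macrophages; their part in the receptor values was not tested. With the smallest p among the lower ones stood Cx3cr1, the receptor of Cx3cl1 on monocytes and macrophages, at 0.60, 1.15 and 0.10 against -0.66 and -0.72 (-1.31, SE 0.34, adjusted p = 0.289). Ccl17, a CCR4 ligand like Ccl22, was at 0.60, 1.49 and 0.58 against -0.13 and -1.13 (-1.52, SE 0.44, adjusted p = 0.322).

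A list of regulators of chemokine induction, which holds activators and also restraining genes such as Nfkbia, Tnfaip3, Zfp36 and Zc3h12a, had a lower mean in c-Jun-deleted macrophages in 22 of 23 genes tested, against 61.4% of all genes. The median was -0.50, and 6 were lower without overlap, read against 20.2% of all genes. The 3 with the smallest p were Cebpb, a transcription factor of activated macrophages (-0.61, SE 0.22), Tlr4, the endotoxin receptor (-0.71, SE 0.28), and Tnfaip3, an inhibitor of NF-kappaB (-0.59, SE 0.23). None passed, with limma adjusted p of 0.392, 0.415 and 0.418. On this list c-Jun-deleted 1 stood at -0.27 and c-Jun-deleted 9 at -0.68 relative to the wild-type mean, and the median was -0.16 within slide 1 and -0.69 within slide 2. Genes of signalling below chemokine receptors had a lower mean in 14 of 22 genes and a median of -0.15, with 5 lower and 3 higher without overlap. These are near the shares of all genes, of which 61.4% had a lower mean, 20.2% were lower and 13.3% higher without overlap. Lower were Prex1, an activator of Rac (-0.44, SE 0.16), Pik3r5, a PI3-kinase subunit (-0.51, SE 0.21), and Rac1 (-0.39, SE 0.17). Higher were Grk6, a receptor kinase (0.60, SE 0.19), Rac2, the Rac of blood cells (0.32, SE 0.14), and Rgs18 (0.65, SE 0.30). Of these signalling genes 0 passed, and limma's adjusted p of the 6 named lay between 0.358 and 0.447.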

How the data were processed

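RNA from 5 samples was measured on 1-colour Agilent arrays designed on mm9, with Cy3-labelled cRNA made from 50 ng of RNA. The deposited scanner files hold spot intensity as Feature Extraction 11.5.1.1 wrote it, background-subtracted and not scaled between arrays, per the file headers. The deposited flags, an other kind of value, served only as filters. The deposited table of group means was not used here.

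Each array's 59305 non-control spots were scaled to their 75th percentile and set to log2, and spots of 1 probe were averaged. A probe was kept when well above background on at least 2 arrays; 256 probes with an outlier-flagged spot were left out. Accessions were named through RefSeq (GRCm38.p6): 28026 of 55681 probes had a symbol. The brightest probe stood for a gene, which left 27938 genes, 13297 of them unnamed. The groups were compared with lmFit and eBayes of limma 3.58.1 (R 4.3.3), with Benjamini-Hochberg adjustment over all genes and a threshold of 0.05. With 3 and 2 arrays the smallest p of an exact permutation test is 0.1, so none was used. The script was tested on simulated data.

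Alternatives were quantile normalization, median centring, normexp (offset 50), no filter, flagged spots kept, the mean of probes, slide as a block, each slide alone, array weights, and leaving out each array. The text names every member, Jun, and from each list of other chemokine genes, regulators of induction and signalling genes the 3 with the smallest p in each direction whose groups did not overlap. A gene that this rule also named is not reported here. The members and lists were chosen with earlier results of these data known. Source names number the mice; were they not separate animals, the p-values would cover no more than the spread among the samples at hand.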

Additional observations from a re-analysis of the deposited data

How the results depend on the processing

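No member passed the adjusted threshold in any setting with a test, so the direction of a difference is what could change. Of the 25 members, 11 kept their direction in every setting run, and 14 in every setting other than leaving out an array. Some of the 11 came close to no difference. Ccl6 and Ccr1 were at -0.01 without c-Jun-deleted 9, and Cxcr3 was at 0.06 without wild-type 5. By contrast, Cxcl16 and Ccl4 came no closer than -0.38 and -0.40. The median difference was -0.75, and was -0.03 within slide 1 and -1.24 within slide 2; leaving out 1 array moved it from -1.08 to -0.23. The count of members lower without overlap was 6; it was 16 within slide 2 and 6 to 16 on leaving out 1 array, the 16 without c-Jun-deleted 1, where 1 array stands against 3. Of all genes, 20.2% were lower without overlap in the main setting, 39.7% within slide 2 and 36.0% without c-Jun-deleted 1. The count higher without overlap was 1, with 4 within slide 2 and 1 to 3 on leaving out 1 array, against 13.3%, 30.7% and 16.1% to 24.9% of all genes. Within slide 1 the sign turned for Ccl12 (0.50), Ccl2 (0.46), Ccl3 (0.25), Cxcl10 (1.14), Cxcl3 (0.35), Cxcl5 (1.15), Cxcl9 (0.37), Ppbp (0.46), Ccr3 (-1.50), Cxcl14 (-0.72) and Cxcr4 (-0.31). Ccr3 also turned with array weights (-0.61), normexp (-0.01) and the slide as a block (-0.07), and Cxcl14 with array weights (-0.33). On leaving out 1 array the sign turned for Ccr3 (-0.51 to 0.98), Cx3cl1 (-0.35 to 0.54), Cxcl1 (-0.05 to 0.50), Cxcl14 (-0.35 to 0.66), Cxcl2 (-0.76 to 0.25), Cxcl3 (-1.99 to 0.36), Cxcl5 (-1.08 to 0.54) and Ppbp (-1.77 to 0.16). The cause was not tested. Counts without overlap were not run with the block or array weights, which move no array's values, nor within slide 1, where 1 array against 1 never overlaps. A lone array was assumed to vary like the others. No paired analysis was possible because the mouse numbers in the titles are not shared between the groups. Ccl8 and Ccl12 were not well above background on c-Jun-deleted 9, which limits their values.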
